A study of Rattus norvegicus with 24 samples.

Results

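The 9 enzyme genes described here act in glycolysis and in the use of its product, pyruvate: Gpi, Pfkm, Pfkp, Aldoa, Pgk1, Eno1, Ldha, Ldhb and Pdk3. They were taken as the probes whose platform gene symbol is one of these names, which gave 9 probes, 1 for each gene, out of 22226 on the array; the annotation names 13228 genes in all. All 9 were among the 8082 probes tested, those detected on at least 6 of the 24 arrays. Expression was measured in cumulus-oocyte complexes, that is, oocytes with the cumulus granulosa cells around them, from 24 sexually mature female Sprague Dawley rats with 1 bead array per rat. The 4 groups held 6 rats each. One received GnRH, eCG and hCG (GnRH+eCG+hCG, called the hCG group), one GnRH and eCG (GnRH+eCG), one GnRH alone (GnRH), and one was the untreated control. GnRH is gonadotropin-releasing hormone and was given here to synchronise the estrous cycle. Equine chorionic gonadotropin (eCG) acts like follicle-stimulating hormone, and human chorionic gonadotropin (hCG) stands in for luteinizing hormone, the signal for ovulation. The sources used here give no dose, no time of collection, no age beyond maturity and no number of complexes per rat.

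Glycolysis splits glucose into pyruvate and yields ATP. In many mammals the oocyte itself uses glucose poorly, and the cumulus cells around it take glucose up, carry it through glycolysis and pass pyruvate and lactate to the oocyte. Gpi turns glucose 6-phosphate into fructose 6-phosphate, the phosphofructokinases Pfkm and Pfkp carry out the committed step, Aldoa splits the 6-carbon sugar, and Pgk1 and Eno1 act in the later steps, where Pgk1 makes ATP. Ldha and Ldhb are the subunits of lactate dehydrogenase, which interconverts pyruvate and lactate. Pdk3 is a kinase that switches off pyruvate dehydrogenase, the entry of pyruvate into the citrate cycle.

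On each array, 25.3% to 37.9% of the probes were detected. Of the 9 enzyme probes, 8 were detected on all 24 arrays and Pdk3 on 22, the exceptions being hCG rat 12 and control rat 3. Signals were normalized together and are given on a log2 scale, on which a difference of 1 is a doubling. An offset added before the logarithm makes folds of dim probes smaller than they were. GnRH rats 5 and 16 stood apart from the other 4 GnRH rats on the first principal component of all tested probes (19.7 and 19, against -28.3 to -18.2). They lay toward the hCG arrays, which ran from 41 to 49.8. The GnRH+eCG arrays ran from -23 to 4.1 and the controls from -34.2 to -17.5. The main differences that rest on the GnRH group are given with and without rats 5 and 16. Rats 1 to 12 had median raw signals of 176.7 to 235.4, against 140.5 to 180 for rats 13 to 24, and each of these sets has 3 rats per group. For the hCG comparisons, each set's own difference is given beside the pooled one for the enzymes called and where its sign differs between the sets. Near-identical copies of some of these genes exist in rodent genomes, and cross-hybridisation of the probes was not tested.

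After hCG, some of the enzymes fell and others did not pass the test. Against GnRH+eCG, 5 of the 9 fell (Pfkm, Gpi, Pdk3, Ldhb and Aldoa) and 0 rose, at an adjusted p under 0.05 in the limma fit over all tested probes. Of all tested probes, 22% were lower and 17.8% higher in that comparison. Pfkm fell most, by 1.68 ± 0.25 on the log2 scale (SE, n = 6 in each group), which is 3.20-fold. Against control, 4 fell (Pfkm, Pdk3, Ldhb and Gpi) and 1 rose (Eno1), beside 27.5% of all tested probes lower and 24.4% higher. Pfkp, Pgk1 and Ldha passed the threshold in 0 of the 5 comparisons made. The median of the 9 differences was -0.32 against GnRH+eCG and -0.15 against control, and over all tested probes it was -0.04 in both. Leaving out each of the 24 arrays in turn gave 4 or 5 called enzymes in either comparison. Leaving out GnRH rats 5 and 16 gave 5 in both. Arrays of a group not compared enter here only through the shared estimate of the spread, so leaving them out tests little. With raw signals scaled only to a common median, 3 were called in each comparison. Rats 1 to 12 alone gave 1 in each, Pfkm against GnRH+eCG and Ldhb against control. Rats 13 to 24 alone gave 2 against GnRH+eCG (Pfkm and Gpi) and 4 against control (Pfkm, Gpi, Ldhb and Pdk3). The other calls were lost within these sets. In bulk samples, fewer cells of a type and less RNA per cell cannot be told apart.

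**Figure D1:**
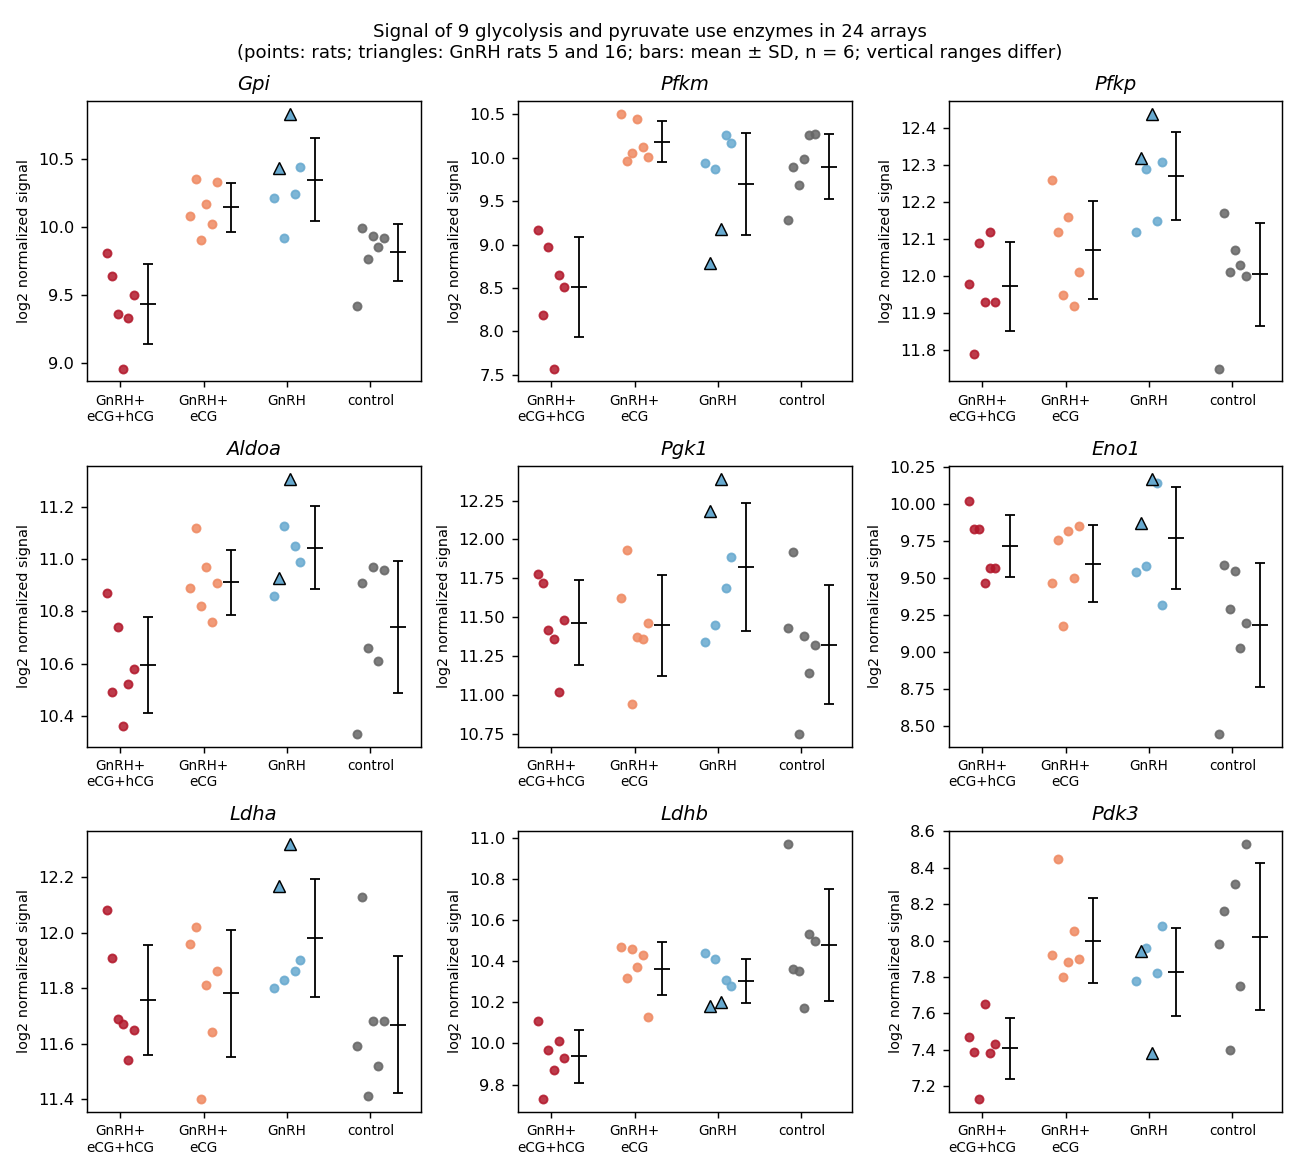
Log2 normalized signal (vertical axis, with a different range in each panel) of the 9 enzyme genes in the hCG, GnRH+eCG, GnRH and control groups (horizontal axis), with 1 point per rat, triangles for GnRH rats 5 and 16, and bars for the mean ± SD (n = 6). All 6 hCG arrays lie below all 6 GnRH+eCG arrays for Gpi, Pfkm, Ldhb and Pdk3, while the groups overlap for Pfkp, Aldoa, Pgk1, Eno1 and Ldha.

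Against GnRH+eCG, Pfkm and Gpi had the 2 largest falls of the 9 enzymes, while against control Pdk3 and Ldhb fell more than Gpi. Gpi, which feeds fructose 6-phosphate to the committed step, had a lowest, median and highest log2 signal of 8.96, 9.43 and 9.81 in the hCG group, 9.90, 10.12 and 10.35 in GnRH+eCG, 9.92, 10.34 and 10.83 in GnRH, and 9.42, 9.88 and 9.99 in control. All hCG arrays lay below all GnRH+eCG and all GnRH arrays and overlapped the controls. The difference was -0.71 ± 0.15 against GnRH+eCG (limma adjusted p = 0.000531) and -0.38 ± 0.15 against control (limma adjusted p = 0.0327). Gpi was thus 1.63-fold lower than in GnRH+eCG and 1.30-fold lower than in control. Within rats 1 to 12 the difference from control was -0.12 and within rats 13 to 24 it was -0.63, and that from GnRH+eCG was -0.51 and -0.91. The call against control was lost when any 1 of 7 arrays was left out (control rats 2, 13, 14 and 15, and hCG rats 12, 22 and 23), with the difference between -0.46 and -0.28 over all single arrays left out and the largest limma adjusted p at 0.101.

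Pfkm, the muscle type subunit of phosphofructokinase, had log2 signals of 7.57, 8.58 and 9.17 (lowest, median and highest) in the hCG group, 9.96, 10.09 and 10.51 in GnRH+eCG, 8.79, 9.91 and 10.26 in GnRH, and 9.28, 9.94 and 10.27 in control. The hCG arrays lay below every GnRH+eCG and every control array, and 1 GnRH array, rat 5, fell within their range. Against GnRH+eCG the difference was -1.68 ± 0.25 (limma adjusted p = 2.23e-05), and against control it was -1.39 ± 0.25, a 2.62-fold fall (limma adjusted p = 9.93e-05). The hCG rats varied more than the GnRH+eCG rats, with an SD of 0.58 against 0.23. The fall from control was -0.85 within rats 1 to 12 and -1.93 within rats 13 to 24, and that from GnRH+eCG was -1.40 and -1.96.

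Pfkp, the platelet type subunit of the same enzyme, was read at 11.79, 11.95 and 12.12 in the hCG group, 11.92, 12.06 and 12.26 in GnRH+eCG, 12.12, 12.30 and 12.44 in GnRH, and 11.75, 12.02 and 12.17 in control (lowest, median and highest log2 signal). Over all 24 arrays Pfkp ran from 11.75 to 12.44, the lowest being control rat 1 and the highest GnRH rat 16, and the groups overlapped. The difference between the hCG group and GnRH+eCG was -0.10, with a 95% confidence interval of -0.28 to 0.08, and that from control was -0.03, with an interval of -0.22 to 0.15. With raw signals scaled only to a common median, the first of these was 0.11.

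In the middle of the pathway, Aldoa, the aldolase that splits fructose 1,6-bisphosphate, had log2 signals of 10.36, 10.55 and 10.88 in the hCG group, 10.76, 10.90 and 11.12 in GnRH+eCG, 10.86, 11.02 and 11.31 in GnRH, and 10.32, 10.78 and 10.97 in control (lowest, median and highest). Its probe is one of 280 whose identifiers differed between the signal and the detection tables and that were joined on their 24 signals. Of the 6 hCG arrays, 5 lay below all GnRH+eCG arrays, and hCG rat 10 did not. Aldoa fell by 0.32 ± 0.11 on the log2 scale against GnRH+eCG, or 1.25-fold (limma adjusted p = 0.03). That call was lost without any 1 of 6 arrays (GnRH+eCG rats 8 and 19, and hCG rats 11, 22, 23 and 24). It was also lost with raw signals scaled to a common median (-0.18, limma adjusted p = 0.435), with signals as deposited (limma adjusted p = 0.102), and within rats 1 to 12 (-0.24) and rats 13 to 24 (-0.40). Against control the difference was -0.15 ± 0.11 (limma adjusted p = 0.295), with 0.07 within rats 1 to 12 and -0.36 within rats 13 to 24.

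Pgk1, the kinase that makes the first ATP of the pathway, had log2 signals of 11.02, 11.45 and 11.78 in the hCG group, 10.94, 11.41 and 11.93 in GnRH+eCG, 11.34, 11.79 and 12.39 in GnRH, and 10.75, 11.35 and 11.92 in control. The groups overlapped, and only GnRH rats 5 and 16, at 12.18 and 12.39, stood above all other arrays. The hCG group differed from GnRH+eCG by 0.02 (95% confidence interval -0.39 to 0.42) and from control by 0.14 (-0.26 to 0.54). The first of these was 0.14 within rats 1 to 12 and -0.11 within rats 13 to 24.

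Eno1, an enolase that makes phosphoenolpyruvate, had log2 signals of 9.47, 9.70 and 10.02 in the hCG group, 9.18, 9.63 and 9.85 in GnRH+eCG, 9.32, 9.73 and 10.17 in GnRH, and 8.45, 9.25 and 9.59 in control. Control rat 1 was the lowest array of all, and 3 of the 6 hCG arrays lay above every control. Eno1 rose by 0.53 ± 0.18 in the hCG group against control (limma adjusted p = 0.0161). Without control rat 1 the difference was 0.38 and the limma adjusted p was 0.0506, so that the call was lost. It was also lost with raw signals scaled to a common median (0.38, limma adjusted p = 0.0901) and with signals as deposited (0.21, limma adjusted p = 0.274). Array weights lost it too (0.32, limma adjusted p = 0.052), as did either set of rats alone. The difference from control was 0.78 within rats 1 to 12, which include control rat 1, and 0.28 within rats 13 to 24. Against GnRH+eCG the difference was 0.12 ± 0.18 (limma adjusted p = 0.638), with 0.42 and -0.19 in the same sets.

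At the fate of pyruvate, the lactate dehydrogenase subunits differed from each other. Ldha, the subunit that predominates in tissues making lactate, had log2 signals of 11.54, 11.68 and 12.08 in the hCG group, 11.40, 11.84 and 12.02 in GnRH+eCG, 11.80, 11.88 and 12.32 in GnRH, and 11.41, 11.63 and 12.13 in control. Its groups overlapped. The hCG group differed by -0.02 from GnRH+eCG (95% confidence interval -0.29 to 0.25) and by 0.09 from control (-0.18 to 0.36). Within rats 1 to 12 these differences were 0.10 and 0.19, and within rats 13 to 24 they were -0.15 and -0.0048.

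Ldhb, the subunit that predominates in heart, had log2 signals of 9.73, 9.95 and 10.11 in the hCG group, 10.13, 10.40 and 10.47 in GnRH+eCG, 10.18, 10.30 and 10.44 in GnRH, and 10.17, 10.43 and 10.97 in control. Every hCG array lay below every array of the other groups, the nearest pair being hCG rat 10 at 10.11 and GnRH+eCG rat 21 at 10.13. Ldhb fell by 0.43 ± 0.11 against GnRH+eCG (limma adjusted p = 0.00289) and by 0.54 ± 0.11 against control (limma adjusted p = 0.000222), or 1.35-fold and 1.46-fold. Within rats 1 to 12 and rats 13 to 24 the differences from control were -0.62 and -0.46, and those from GnRH+eCG were -0.48 and -0.38. With raw signals scaled to a common median, the difference from GnRH+eCG was -0.32 (limma adjusted p = 0.0996) and the one from control kept its call.

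Pdk3, the pyruvate dehydrogenase kinase, had the dimmest probe of the 9. Its log2 signals were 7.13, 7.41 and 7.65 in the hCG group, 7.80, 7.91 and 8.45 in GnRH+eCG, 7.38, 7.88 and 8.08 in GnRH, and 7.40, 8.07 and 8.53 in control. The hCG arrays lay below all GnRH+eCG arrays, and 3 of them lay below every control array. Pdk3 fell by 0.59 ± 0.16 against GnRH+eCG (limma adjusted p = 0.0049) and by 0.61 ± 0.16 against control (limma adjusted p = 0.00254), or 1.51-fold and 1.53-fold. The difference from GnRH+eCG was -0.73 within rats 1 to 12 and -0.46 within rats 13 to 24, and that from control was -0.52 and -0.71.

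In all, the hCG and GnRH+eCG arrays did not overlap for 4 of the 9 enzymes, beside 21.1% of all tested probes, and the hCG and control arrays did not overlap for 2 (Pfkm and Ldhb), beside 26.1%.

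**Figure D2:**
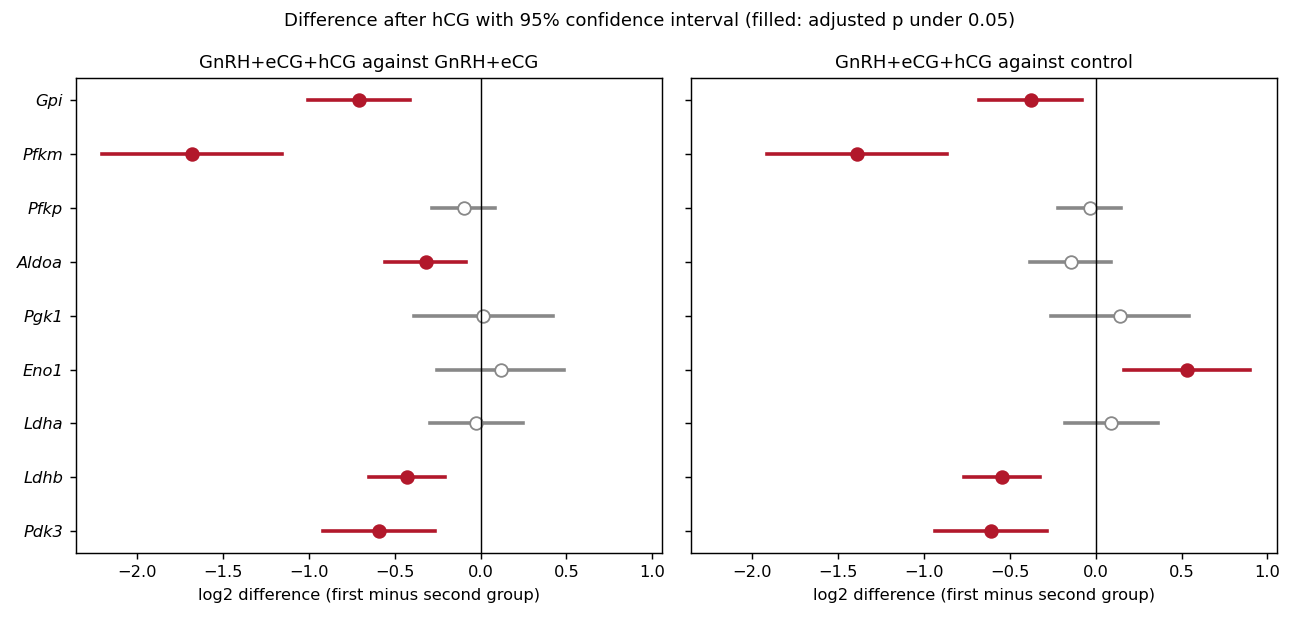
Log2 difference (horizontal axis) of the hCG group from GnRH+eCG (left panel) and from control (right panel) for the 9 enzymes in pathway order (vertical axis), with 95% confidence intervals from the limma fit and filled points for an adjusted p under 0.05. Pfkm stands at -1.68 and -1.39, and Eno1 is the 1 filled point above 0, at 0.53 against control.

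Pfkm with Pfkp, and Ldha with Ldhb, are pairs of genes for the same reaction, so the change of each gene against its partner was tested within arrays. A 2-sided exact permutation test over all assignments of 6 against 6 arrays was used, adjusted over 10 tests (2 pairs in 5 comparisons). Relative to Pfkp, Pfkm fell by 1.58 against GnRH+eCG and by 1.35 against control. In both cases the arrays did not overlap and the exact permutation p was 0.002165, the smallest that 6 against 6 arrays can give (adjusted p = 0.0108). Pfkp itself differed by -0.10 and -0.03, so these values mostly restate the fall of Pfkm on the same arrays. With each array's difference centred on the control mean, the hCG arrays had a lowest, median and highest value of -2.25, -1.34 and -0.70, the GnRH+eCG arrays -0.05, 0.27 and 0.40, the GnRH arrays -1.42, -0.19 and 0.21, and the control arrays -0.36, -0.07 and 0.38. The hCG arrays with the 2 GnRH rats that stood apart made up the low end.

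Relative to Ldhb, Ldha was higher in the hCG group by 0.41 against GnRH+eCG and by 0.64 against control (adjusted exact permutation p = 0.0346 for both). The arrays overlapped in both comparisons. Centred on the control mean, the lowest, median and highest values were 0.35, 0.58 and 0.99 in the hCG group, -0.25, 0.28 and 0.55 in GnRH+eCG, 0.17, 0.39 and 0.94 in GnRH, and -0.57, -0.07 and 0.58 in control. The smaller of these differences was lost when any 1 of 9 arrays was left out (GnRH+eCG rats 7, 9, 19 and 20, and hCG rats 10, 11, 12, 22 and 24), with values of 0.31 to 0.47, and the larger when hCG rat 10, 11 or 22 was, with values of 0.52 to 0.75 over all single arrays left out. The pair differences are of changes, since the levels of 2 probes cannot be compared on an array. Ldha itself differed by -0.02 from GnRH+eCG and by 0.09 from control, so its pair differences mostly restate the fall of Ldhb.

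**Figure D3:**
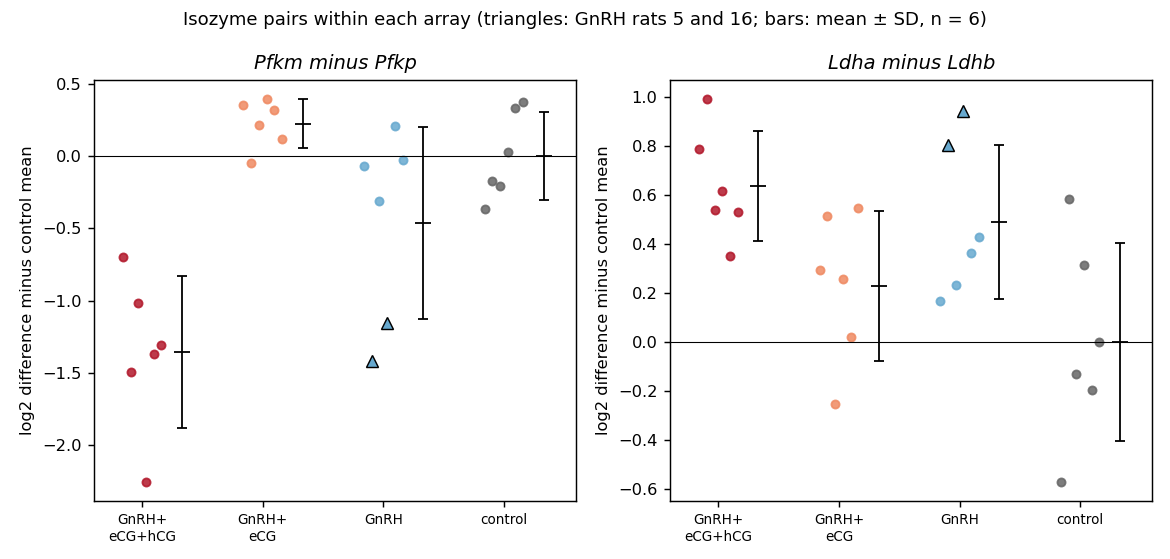
Log2 signal of Pfkm minus Pfkp (left panel) and of Ldha minus Ldhb (right panel) in each array, centred on the control mean (vertical axes), for the hCG, GnRH+eCG, GnRH and control groups, with 1 point per rat, triangles for GnRH rats 5 and 16, and bars for the mean ± SD (n = 6). For Pfkm minus Pfkp the hCG arrays lie at -2.25 to -0.70, below all GnRH+eCG and control arrays and overlapping GnRH rats 5 and 16.

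The promoters of these 4 genes are shown because the partners of each pair changed unequally. RefSeq promoter windows of assembly GRCr8, from 250 bases before to 50 bases after the start site, were matched by symbol for 8 of the 9 enzymes, all but Pgk1. Hypoxia-inducible factor, which is known to raise many glycolysis genes, binds a core of ACGTG or GCGTG, so both were searched on both strands, where the reverse strand reads CACGT or CACGC. Capitals mark every match. In CACGTG the forward and reverse matches of ACGTG overlap.
Pfkm promoter, chr7:131113849-131114148, plus strand: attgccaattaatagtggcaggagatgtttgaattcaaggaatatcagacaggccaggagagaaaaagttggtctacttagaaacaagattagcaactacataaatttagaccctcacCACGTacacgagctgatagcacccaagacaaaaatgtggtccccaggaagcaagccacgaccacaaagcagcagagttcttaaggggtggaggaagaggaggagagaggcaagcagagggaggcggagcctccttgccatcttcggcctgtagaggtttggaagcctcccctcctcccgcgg
Pfkp promoter, chr17:68639563-68639862, plus strand: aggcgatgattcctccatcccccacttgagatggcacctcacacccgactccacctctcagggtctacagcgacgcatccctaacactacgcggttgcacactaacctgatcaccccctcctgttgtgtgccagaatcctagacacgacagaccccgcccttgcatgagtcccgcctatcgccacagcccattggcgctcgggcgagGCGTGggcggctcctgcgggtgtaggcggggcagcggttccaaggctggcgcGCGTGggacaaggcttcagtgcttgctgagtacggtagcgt
Ldha promoter, chr1:106507842-106508141, plus strand: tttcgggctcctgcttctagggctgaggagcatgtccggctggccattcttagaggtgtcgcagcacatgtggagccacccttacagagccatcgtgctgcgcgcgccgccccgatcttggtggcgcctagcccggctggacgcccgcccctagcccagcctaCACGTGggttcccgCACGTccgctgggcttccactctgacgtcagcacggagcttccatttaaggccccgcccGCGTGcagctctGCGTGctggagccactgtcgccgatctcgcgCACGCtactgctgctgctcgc
Ldhb promoter, chr4:177177359-177177658, minus strand: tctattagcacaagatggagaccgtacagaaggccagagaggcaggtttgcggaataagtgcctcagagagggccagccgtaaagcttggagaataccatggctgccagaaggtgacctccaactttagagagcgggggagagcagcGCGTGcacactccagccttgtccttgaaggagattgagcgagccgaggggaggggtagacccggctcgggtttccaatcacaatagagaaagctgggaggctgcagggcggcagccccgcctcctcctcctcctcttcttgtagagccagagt

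Pfkm had 1 match of ACGTG, which begins 132 bases before the start site, and Pfkp had 2 matches of GCGTG, the first 43 bases before it. Ldha had 3 matches of each core. Ldhb had 1 match of GCGTG, 103 bases before its start site. Of the other members, Gpi, Aldoa, Eno1 and Pdk3 each had at least 1 match in a window. Aldoa had 3 windows, 2 of them without a match, and Eno1 had 2, so that 9 of the 11 windows of these 8 genes held either core. Among all 33469 promoter windows of the same length, 19.3% held ACGTG, 29.7% held GCGTG and 41.6% held either. A match describes the letters in the window, and no binding or promoter activity was measured here.

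Before hCG, none of the 9 enzymes passed the threshold. In GnRH against control, 0 of 9 and 0% of all tested probes were called at an adjusted p under 0.05 in limma, while 6 enzymes (Gpi, Eno1, Pfkp, Aldoa, Pgk1 and Ldha) had an unadjusted limma p under 0.05, beside 11.9% of all tested probes. All 6 lay higher in GnRH. Eno1 differed by 0.59 ± 0.18 and Gpi by 0.53 ± 0.15, and the 6 limma adjusted p-values lay between 0.377 and 0.39. The GnRH and control arrays overlapped for all 9 enzymes, and 0.186% of all tested probes did not overlap. Gpi came nearest, with 5 of 6 GnRH arrays above every control array.

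GnRH rats 5 and 16 held part of those differences. For Pfkm they lay at 8.79 and 9.18, below the other 4 GnRH rats at 9.87 to 10.26 and below all controls. Both also lay below the other 4 for Ldhb, at 10.18 and 10.20 against 10.28 to 10.44. For Pfkp, Pgk1 and Ldha both lay above them, for Ldha at 12.17 and 12.32 against 11.80 to 11.90. Rat 16 was the highest of all 24 arrays for Pfkp, Gpi, Aldoa, Pgk1, Eno1 and Ldha. Without these rats the differences from control were 0.46 for Eno1, 0.39 for Gpi, 0.27 for Aldoa and for Pgk1, 0.21 for Pfkp and 0.18 for Ldha (limma adjusted p = 0.999 for each), and that of Pfkm was 0.16, against -0.20 with them.

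The same rats also differed in cell markers and other genes. Sums given here are the log2 of signals added before the logarithm, so the brightest genes weigh most. The 6 tested theca and stroma markers of 8 summed to 12.75 in rat 5 and 12.36 in rat 16. The other 4 rats gave 9.20 to 10.88. Cyp17a1, a theca gene in that list, was detected on 0 of 6 GnRH arrays. The sum of the 9 tested cumulus and granulosa markers of 10 was 13.87 and 13.80, against 14.78 to 15.16. For the 6 tested oocyte markers of 13 it was 12.07 and 11.69, against 12.13 to 12.77. Both rats lay within the other 4 for the 2 tested erythrocyte markers. For the 2 tested leukocyte markers rat 5 lay above the other 4, at 10.28 against 7.39 to 8.44, and rat 16 within. The 8 tested hypoxia-inducible factor genes summed to 13.39 and 13.31, against 12.27 to 12.52. Of the gene lists described further below, both rats also lay above the other 4 for other glycolysis (13.87 and 14.08, against 13.19 to 13.59). The same held for pyruvate use (13.39 and 13.57, against 12.99 to 13.14) and the citrate cycle (14.35 and 14.45, against 14.20 to 14.33). Rat 16 lay within the other 4 for the transport genes, and rat 5 for the side branches. The part of these genes in the enzyme values was not tested.

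**Figure D4:**
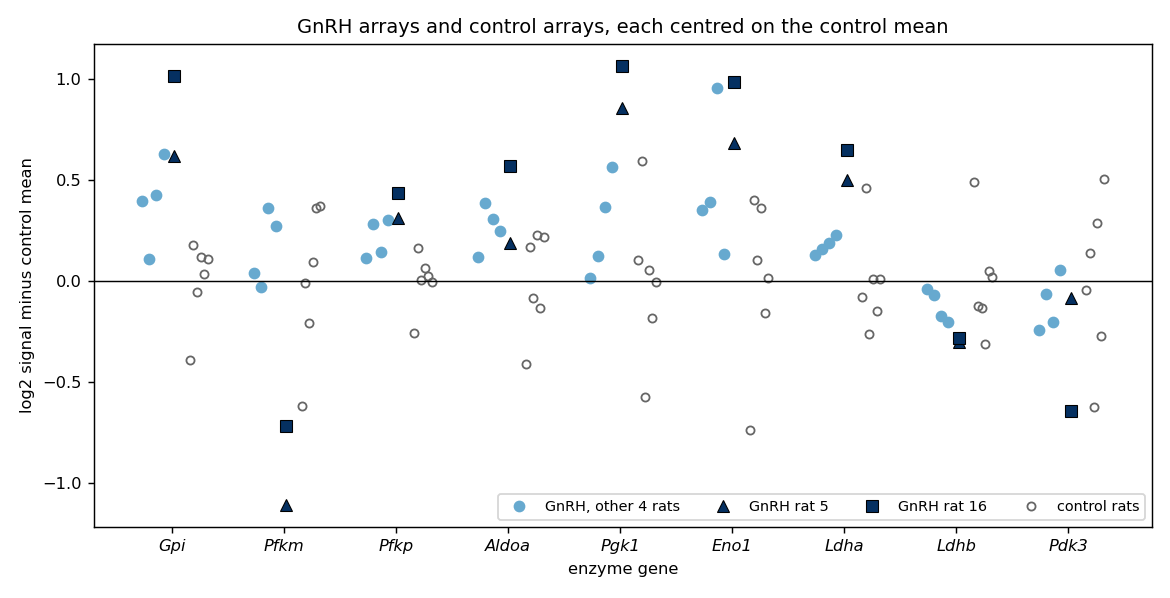
Log2 signal of each enzyme (horizontal axis, pathway order) minus the control mean (vertical axis) in the 6 GnRH rats, with rats 5 and 16 as dark triangles and squares and the other 4 as blue points, and in the 6 control rats as open circles. Rats 5 and 16 lie below the other 4 GnRH rats for Pfkm and Ldhb and above them for Pfkp, Pgk1 and Ldha.

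In GnRH+eCG against GnRH, 0 of 9 enzymes and 0% of all tested probes were called in limma, and the arrays overlapped for all 9, beside 0.21% of all tested probes that did not overlap. Only Pfkp had an unadjusted limma p under 0.05, with a difference of -0.20 ± 0.09 (limma adjusted p = 0.911), and of -0.15 without GnRH rats 5 and 16 (limma adjusted p = 0.867). Pfkm differed by 0.49 ± 0.25, and by 0.13 without GnRH rats 5 and 16. Relative to Pfkp, Pfkm was higher in GnRH+eCG by 0.69 (adjusted exact permutation p = 0.0346), but without these rats by 0.27 (adjusted exact permutation p = 0.114). With 1 array left out at a time it was 0.49 to 0.82, and the call was lost in 8 of the 24 cases (without GnRH+eCG rat 7, 9, 19, 20 or 21, or hCG rat 10, 11 or 22, which enter through the adjustment).

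In GnRH+eCG against control, 0 of 9 enzymes were called in limma, beside 0.421% of all tested probes, and 0 of 9 did not overlap, beside 1.62%. Eno1 differed by 0.41 ± 0.18 and Gpi by 0.33 ± 0.15, the 2 enzymes with an unadjusted limma p under 0.05 (limma adjusted p = 0.267 and 0.273). For Gpi, 5 of 6 GnRH+eCG arrays lay above every control. These comparisons share the control arrays with each other and the GnRH+eCG arrays with the hCG step.

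Read across the 9 enzymes, some arrays took the same end of their group repeatedly. In the hCG group, rat 10 lay above the group mean for all 9 enzymes and was the highest for 7. In GnRH+eCG, rat 9 was the lowest for 5 and rat 8 the highest for 5. In control, rat 1 was the lowest for 5 (Pfkm, Pfkp, Gpi, Aldoa and Eno1) and the highest for Ldhb, at 10.97 against 10.53 for the next, and rat 2 was the highest for 5. In 36 sets of 6 arrays (9 enzymes in 4 groups), the gap between an end array and its neighbour passed Dixon's 95% critical value in 0. Its largest share of the range was 0.617, for Ldha in control rat 2 at 12.13. Pdk3 in GnRH+eCG rat 8 also had a share of 0.617, at 8.45 against 8.05 for the next. Both shares lay only just under the critical value.

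The 3 enzymes with the widest range of group means were Pfkm, Gpi and Pdk3, and the tested genes nearest to each in pattern were found by the mean absolute difference over 24 arrays, each gene centred on its own mean. For Pfkm these were Dhh (0.23), Prim1 (0.30) and Ptpre (0.30). For Gpi they were Tpi1 (0.15), Hcfc1r1 (0.17) and Pfkl (0.19), of which Tpi1, triosephosphate isomerase, and Pfkl, the liver type phosphofructokinase, are glycolysis enzymes too. For Pdk3 they were Usp47 (0.12), Mrpl1 (0.13) and Bcas2 (0.13).

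Around the 9 enzymes, other genes of sugar and pyruvate metabolism moved both ways after hCG. The counts that follow stand beside 17.8% of all tested probes higher and 22% lower against GnRH+eCG, and 24.4% higher and 27.5% lower against control, and nothing particular to a list is read from them. Among 24 other glycolysis genes, 10 were tested, and 2 rose and 4 fell against GnRH+eCG. Pfkfb3, which makes the activator of phosphofructokinase, rose by 2.37 ± 0.47 (limma adjusted p = 0.000405), to 9.52 ± 0.30 in the hCG group, against 7.15 ± 0.80 in GnRH+eCG (SD, n = 6 each), where it was detected on 3 of 6 arrays. Eno2, another enolase, rose by 1.72 ± 0.50 to 10.34 in the hCG group, against 8.62 in GnRH+eCG. Bpgm, which makes and breaks down 2,3-bisphosphoglycerate, fell by 1.05 ± 0.18, Tpi1 by 0.46 ± 0.13 and Pfkl by 0.72 ± 0.23. Against control, 2 rose and 1 fell.

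Of 21 pyruvate use genes, 14 were tested, and 6 rose and 1 fell against GnRH+eCG, and 6 rose and 2 fell against control. The malic enzymes, which make pyruvate from malate, rose by 0.90 ± 0.13 for Me2 and by 1.12 ± 0.26 for Me1. Pdp1, the phosphatase that undoes the action of Pdk3 and its relatives on pyruvate dehydrogenase, rose by 1.10 ± 0.20 to 9.97 ± 0.49 in the hCG group, against 8.87 ± 0.18 in GnRH+eCG. Dld, a subunit of that complex, rose by 0.43 ± 0.12, and Mpc1, of the mitochondrial pyruvate carrier, fell by 0.44 ± 0.15.

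Of 14 transport genes, 6 were tested, and 2 rose and 3 fell in each comparison. Slc16a1, a carrier of lactate and pyruvate, fell by 0.63 ± 0.12 against GnRH+eCG, and Emb, a chaperone of such carriers, by 0.90 ± 0.23, with detection on 3 of 6 hCG arrays. Slc2a1, a glucose carrier, rose by 0.56 ± 0.19, and Bsg, another chaperone, by 0.35 ± 0.13. Slc2a12 was detected on 0 of 6 hCG arrays and on 4 of 6 GnRH+eCG arrays. Its mean was at least 1.59-fold lower in the hCG group than in GnRH+eCG (limma adjusted p = 0.0192). That bound sets the GnRH+eCG mean against the higher, in each hCG array, of the probe's own signal and the lowest detected signal. It does not cover the spread between rats, and the measured difference was -0.68 ± 0.22.

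Of 18 citrate cycle genes, 15 were tested, and 2 rose and 4 fell against GnRH+eCG, and 5 rose and 5 fell against control. Suclg1 fell by 0.51 ± 0.10, Idh2 by 0.73 ± 0.19 and Idh3a by 0.64 ± 0.20 (detected on 2 of 6 hCG arrays), and Dlst rose by 0.66 ± 0.18 and Cs by 0.32 ± 0.11. Of 15 genes of side branches of glycolysis, 5 were tested, and 0 were called against GnRH+eCG and 1 rose against control. Of 14 genes of the hypoxia-inducible factor pathway, 8 were tested, and 4 rose and 0 fell against GnRH+eCG, and 2 rose and 0 fell against control. Hif1a, the factor's regulated subunit, rose by 0.66 ± 0.12 to 9.84 ± 0.15 in the hCG group, against 9.18 ± 0.17 in GnRH+eCG. Vegfa, a target of the factor, rose to 9.46 ± 0.34 in the hCG group, against 7.97 ± 0.72 in GnRH+eCG. From control, at 8.74 ± 0.59, Vegfa differed by 0.72 ± 0.48 (limma adjusted p = 0.213). Bnip3 and P4ha1 of the same list differed from GnRH+eCG by -0.34 ± 0.44 and 0.02 ± 0.19 (limma adjusted p = 0.578 and 0.944). Vhl, which marks the factor for breakdown, rose by 0.39 ± 0.13, and Egln2, a prolyl hydroxylase that acts on the factor, by 0.34 ± 0.11.

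**Figure D5:**
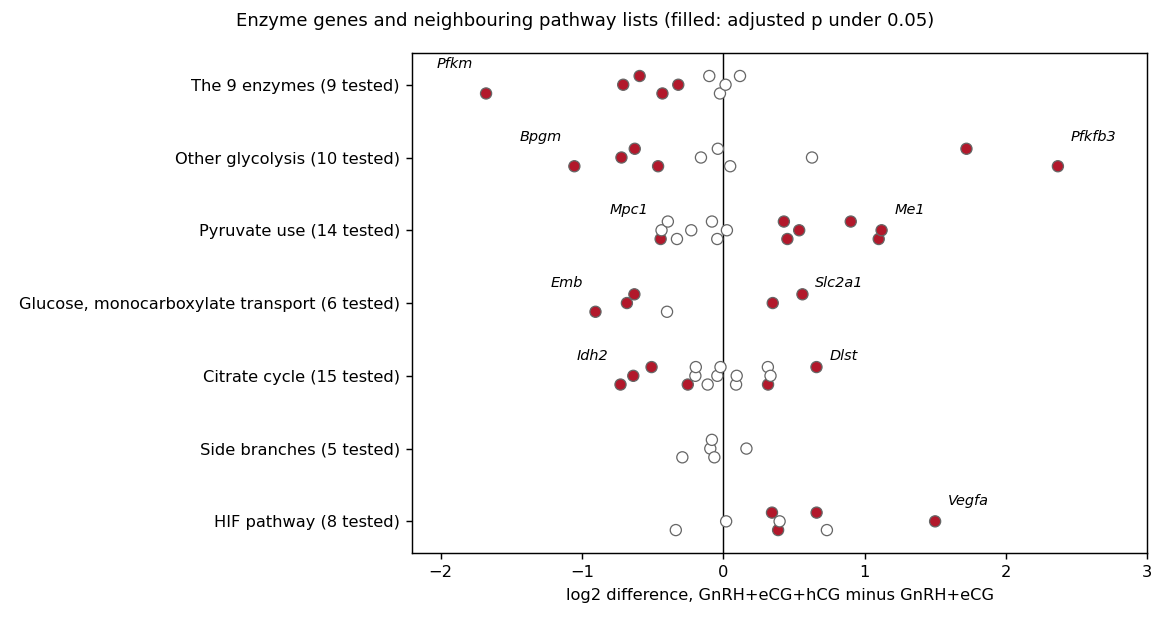
Log2 difference of the hCG group from GnRH+eCG (horizontal axis) for the 9 enzymes and for the tested genes of 6 lists around them (vertical axis), with 1 point per gene and filled points for an adjusted p under 0.05 in limma. The 5 filled enzymes lie below 0, from Pfkm at -1.68, while Pfkfb3 at 2.37 and Eno2 at 1.72 lie farthest to the right.

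Markers of the cells in a complex, and of cells that may come with it, also moved between the groups compared. The marker counts below stand beside 22% of all tested probes lower and 17.8% higher against GnRH+eCG, and 27.5% lower and 24.4% higher against control. All 6 tested oocyte markers of 13 fell after hCG in both comparisons. The log2 of their signals, added before the logarithm, was 10.90 to 11.51 in the hCG group and 11.70 to 13.46 in GnRH+eCG. It was 11.69 to 12.77 in GnRH and 12.09 to 13.41 in control. Among these markers was Gdf9, an oocyte growth factor, at 8.02 ± 0.34 in the hCG group, against 9.49 ± 0.64 in GnRH+eCG. Nlrp5, another oocyte gene, was detected on 0 of 6 hCG arrays and 4 of 6 GnRH+eCG arrays. Of the 9 tested cumulus and granulosa markers, 5 fell in each comparison, with sums of 13.97 to 14.63 in the hCG group, 14.40 to 15.05 in GnRH+eCG, 13.80 to 15.16 in GnRH and 14.34 to 15.14 in control.

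The 6 tested theca and stroma markers summed in the same way to 11.23 to 12.40 in the hCG group and 11.08 to 12.02 in GnRH+eCG. Their sums were 9.20 to 12.75 in GnRH and 9.16 to 10.50 in control. Single markers of this list moved differently. Against GnRH+eCG, 0 were called higher and 1 lower, Cyp17a1, which fell by 1.83 ± 0.57 (limma adjusted p = 0.0135). Against control, 4 were called higher and 0 lower. The 2 tested erythrocyte markers of 8, the globins Hbb and Hba-a1, summed to 12.69 to 13.17 in the hCG group, 12.16 to 14.45 in GnRH+eCG, 12.77 to 14.20 in GnRH and 11.11 to 12.87 in control. Of the 8 leukocyte markers, 2 were tested (Cd14 and Cd74), with sums of 8.28 to 9.62 in the hCG group, 7.91 to 9.66 in GnRH+eCG, 7.39 to 10.28 in GnRH and 7.43 to 8.51 in control. Endothelium and oviduct epithelium each had 1 tested marker of 6, Tek and Epcam. Tek was 6.61 to 7.82 in the hCG group, 6.30 to 7.82 in GnRH+eCG, 6.26 to 7.54 in GnRH and 6.39 to 7.13 in control. Epcam was 6.37 to 7.35, 6.80 to 9.06, 6.52 to 7.54 and 6.82 to 9.89 in the same order. Neither was called against GnRH+eCG (limma adjusted p = 0.239 and 0.103), and both were against control (limma adjusted p = 0.0455 and 0.018). The part of these markers in the enzyme differences was not tested.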

How the data were processed

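The signals deposited are linear intensity values, 1 per probe and array, made with BeadStudio per the submitters' processing notes. They looked neither background-subtracted nor normalized between arrays. The deposited detection values are a fraction between 0 and 1. They increased with the signal on all 24 arrays and were read as 1 minus the detection p. Signals came from the series value table. Both tables hold 22226 probes, of which 21946 were matched by identifier and 280 by their 24 signals (tolerance 0.002, log2). RNA was amplified before labelling, per the labels.

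Background correction and quantile normalization used neqc (offset 16) from limma 3.58.1 with R 4.3.3. The 8082 probes (36.4%) whose detection p was under 0.01 on 6 or more of the 24 arrays entered a model with 1 mean per group over all 24 arrays (lmFit and eBayes, 20 residual degrees of freedom). For each of the 5 comparisons p-values were adjusted over these 8082 by the Benjamini-Hochberg method (threshold 0.05). Values are log2 normalized signal and differences carry their SE. Adjusted p-values of single genes come from limma. Its model was tried on simulated arrays with 200 of 8082 probes changed and 1 spread per probe. Changes of 0.5 on the log2 scale were recovered in 32% for the hCG group against GnRH+eCG, and in 36% against control. Changes of 1 were recovered in 82% and 80%. Small changes were thus often missed. Fewer probes were changed there than were called after hCG in these data. Each rat is 1 replicate, and the number of arrays limits the precision.

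All 9 enzymes were named. From each gene list, the counts and up to 5 genes with the smallest adjusted p against GnRH+eCG were given, and from the markers examples. Bnip3 and P4ha1, which were not called, were given in addition. Members and lists were chosen with earlier results of these data known. Symbols come from the platform annotation, which can be old. All 24 sample columns were used. Slide and scan dates were not used here, so rats 1 to 12 and 13 to 24 stood in for batches. Alternatives covered normalization, offset, filter, variance model, array weights, these sets, the threshold and leaving out arrays.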

Additional observations from a re-analysis of the deposited data

How the results depend on the processing

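No call was reversed. The count of 5 called enzymes against GnRH+eCG was 3 with raw signals scaled to a common median, 1 within rats 1 to 12 and 2 within rats 13 to 24. The count of 5 against control was 3 with median scaling, 1 within rats 1 to 12 and 3 at an adjusted p under 0.01. The sets hold 3 rats a group, so fewer arrays entered. Pfkm against GnRH+eCG and Ldhb against control kept their call in all 39 alternatives. Some of these left out only arrays of groups not compared, which changes the estimate of the spread and not the difference. Aldoa against GnRH+eCG lost it in 11, Gpi against control in 11 and Eno1 against control in 7. Array weights added Aldoa against control (-0.25, limma adjusted p = 0.0171).

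Ldha relative to Ldhb in the hCG group against GnRH+eCG was 0.36 (adjusted exact permutation p = 0.0606) with quantile-normalized raw signals. Leaving out 1 array gave 0.31 to 0.47 for it, 0.52 to 0.75 against control, and 0.37 to 0.60 in GnRH against control, where leaving out control rat 2 brought a call (0.60, adjusted exact permutation p = 0.0271). Pfkm relative to Pfkp in the hCG group against control was -0.82 within rats 1 to 12 and -1.89 within rats 13 to 24. In GnRH+eCG against GnRH it was 0.27 without GnRH rats 5 and 16, and 0.49 to 0.82 with 1 array left out. The cause of these changes was not tested.

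Signals used as deposited moved the median of all tested probes in the hCG group by -0.16 against GnRH+eCG and by -0.26 against control. Each enzyme had 1 probe, so averaging probes gave no other value. Rat numbers are not shared between groups. No paired analysis was possible because the groups compared share no replicate number. Pdk3, near the detection limit, was left out where detection on all 24 arrays was required.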
